A study of Mus musculus with 6 samples.

Results

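The genes described are 47 splicing factors and cold-inducible RNA-binding proteins of the mouse, chosen by symbol from a list that covers 7 roles, out of 55401 genes in the deposited count table. All 47 were found in the table and all 47 passed the filter on low counts. They were measured by poly(A) RNA sequencing of whole liver from C57BL/6 mice in 6 libraries. The 3 HFCF libraries came from mice fed a diet rich in fat, cholesterol and fructose. The 3 OP libraries came from livers labelled OP-treated, where OP stands for okra polysaccharide in the title of the series. Diet under OP, dose, age and hour of sampling are not in the labels. Nor do the labels tell if each sample was a separate animal, so every p-value rests on differences between samples that could be technical. The comparison asked which of these genes differed in level between OP and HFCF livers. Every log2 fold change below compares OP with HFCF, 3 libraries each.

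Splicing removes introns from pre-mRNA on the spliceosome, a large complex of small nuclear RNAs and proteins, and the proteins studied here decide which splice sites it uses. SR proteins bind exons through RNA recognition motifs and recruit the spliceosome through arginine- and serine-rich tails, which SRPK kinases phosphorylate in the cytoplasm and CLK kinases in the nucleus. hnRNPs coat nascent RNA and often act against exon inclusion. CIRBP and RBM3 are small glycine-rich RNA-binding proteins whose mRNAs accumulate on mild cooling and decline on warming, and in rodent liver Cirbp follows the daily rhythm of body temperature. Many genes of this class limit their own output by splicing that retains an intron or includes an exon with a stop codon. Counts per gene add up all such transcripts and cannot tell them apart.

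Total counts ranged from 46459980 to 61918541 per library. Levels are given as CPM, counts relative to a library size scaled by TMM (trimmed mean of M values). The 6 hepatocyte markers, among them Alb and Ttr, summed to 30367, 29249 and 50092 CPM in HFCF replicates 1, 2 and 3. In OP replicates 1, 2 and 3 they summed to 72375, 65439 and 47196 CPM. The groups overlapped, since HFCF replicate 3 lay above OP replicate 3. Mitochondrially encoded genes took 22.3, 19.1 and 14.3% of the counts in HFCF replicates 1, 2 and 3, and 7.77, 6.41 and 15.0% in OP replicates 1, 2 and 3. The summed level of 5 red cell markers ran from 941 to 1767 CPM in HFCF and from 192 to 414 CPM in OP, with no overlap. Of these 5, the globin genes were lower in OP. Alas2 was higher, at a mean of 63.1 CPM against 50.3 in HFCF, also with no overlap. The sums of the 7 Kupffer cell and macrophage markers (257 to 340 CPM in HFCF, 150 to 246 in OP) did not overlap. Those of the 5 neutrophil markers (7.50 to 12.9 and 4.14 to 7.49) did not overlap either, but nearly met. No single gene of these 2 lists passed the test used below. The 6 adipocyte markers summed to 8.83, 6.51 and 26.5 CPM in HFCF and to 17.5, 69.6 and 86.6 CPM in OP, which overlapped. OP replicate 2 held 58.8 CPM of the skeletal muscle myosin gene Myh4 and 81.8 CPM of the immunoglobulin gene Igkc. The other libraries were at 0 to 5.46 CPM for Myh4 and at 10.7 to 18.8 CPM for Igkc, and HFCF replicate 3 was the only other library with Myh4 counts. The part of these differences between libraries in the results below was not tested, beyond the values given with a library left out or with the mitochondrial share in the fit. In bulk tissue, fewer cells of a type and less RNA per cell cannot be told apart.

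Across the 47 genes, 7 were lower in OP and none was higher. The 7 were Cirbp, Srsf5, Luc7l, Rsrp1, Hnrnpdl, Ddx17 and Srrm2, by edgeR's quasi-likelihood test (threshold 0.05 after Benjamini-Hochberg adjustment over 17394 genes). They make up 14.9% of the 47, while 3.47% of all tested genes were called lower. Among tested protein-coding genes whose mean level lay within the range of the 47 (15.9 to 540 CPM), 4.67% were called lower. The count of 0 higher genes was also 0 at an unadjusted p under 0.05 and 0 with DESeq2, against 3.26% of all tested genes called higher by edgeR and 7.3% by DESeq2. DESeq2 called 13 of the 47 lower, beside 7.27% of all tested genes. With edgeR's threshold set to 0.01, Cirbp alone was called, beside 0.529%. The median log2 fold change of the 47 was -0.23, beside 0.02 over all tested genes, and 36 of the 47 (76.6%) lay below 0, beside 48.6% of all tested genes. With the mitochondrial share in the fit the median of the 47 was -0.096 and 28 of them lay below 0. In 16 of the 47 (34.0%) every OP library lay below every HFCF library, which held for 15.4% of all tested genes. In 3 (6.38%), namely Tra2a, Tra2b and Hnrnpc, every OP library lay above, which held for 15.8%.

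**Figure D1:**
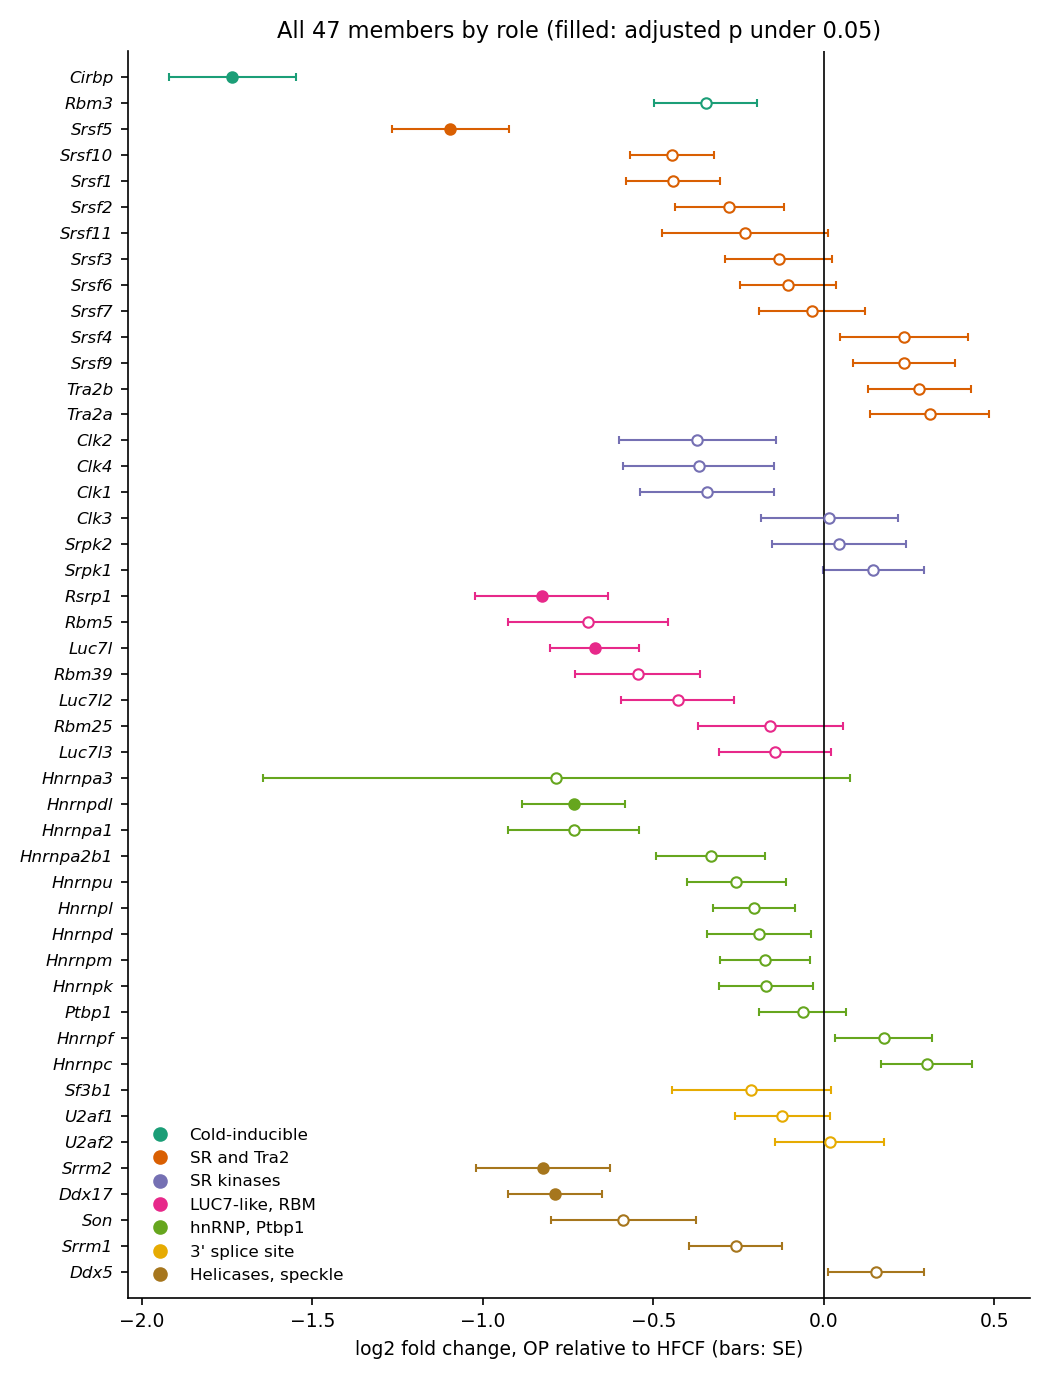
Log2 fold change of each of the 47 genes, OP relative to HFCF, from edgeR, with its standard error as a bar. Colours mark the 7 roles and filled points the 7 genes that passed the test, all of which lie left of 0 between -1.73 for Cirbp and -0.67 for Luc7l.

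The calls depended on the settings and on which libraries entered the fit. With total counts in place of TMM, or with no filter on low counts, 5 of the 47 were called lower, beside 3.08% and 1.43% of all tested genes, and Rsrp1 and Srrm2 were the genes lost. Without HFCF replicate 1, or without HFCF replicate 2, Cirbp was the only one of the 47 called lower. In those fits 0.326% and 0.295% of all tested genes were called lower. Without OP replicate 1 the calls were Cirbp and Srsf5, beside 0.649% of all tested genes. Without OP replicate 2 they were Cirbp, Srsf5 and Ddx17, beside 1.94%, and without HFCF replicate 3 they were Cirbp, Srsf5, Ddx17 and Luc7l, beside 2.86%. Without OP replicate 3 there were 9 calls, beside 3.55%: Rbm39, Rbm5 and Son were added and Srrm2 was lost. HFCF replicates 1 and 2 were more alike (chi-square per degree of freedom 46.2) than any other pair within a group (148 to 350). With HFCF replicate 3 and OP replicate 2 both left out, Cirbp alone was called, beside 1.52%.

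Cirbp showed the largest change of the 47 genes. Its level was 50.4, 60.0 and 60.6 CPM in the HFCF libraries and 16.5, 21.2 and 13.7 CPM in the OP libraries. The groups were far apart, with the highest OP library well under the lowest HFCF library. The mean fell from 57.0 ± 5.74 to 17.1 ± 3.77 CPM (SD, n = 3 each), which left 30.0% of the HFCF level. The log2 fold change was -1.73 ± 0.187 (SE), with an adjusted p of 0.00366 in edgeR's quasi-likelihood test. Cirbp stayed called in all 16 alternative fits, with log2 fold changes from -2.18 to -1.60. Cirbp had no exon bases in common with another gene in the annotation used.

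Rbm3, its closest relative in the list, was at 59.6, 61.8 and 65.2 CPM in HFCF and at 52.0, 54.3 and 40.3 CPM in OP. Here too no OP library reached the HFCF range, but the gap was narrow and the call was not made. The log2 fold change was -0.35 ± 0.152 (SE), with an adjusted p of 0.199 in edgeR's test and of 0.113 to 0.391 over the 16 alternatives, DESeq2 among them. The annotation also holds a pseudogene copy, Rbm3-ps. The library with the least Cirbp, OP replicate 3, also had the least Rbm3.

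The ratio of the 2 genes within a library is free of library scaling. Cirbp counts were 0.846, 0.972 and 0.929 times those of Rbm3 in HFCF and 0.317, 0.390 and 0.340 times in OP. The log2 ratio was lower in OP by a difference of -1.40, and the groups did not overlap. An exact two-sided permutation test gave p = 0.1, the smallest that 3 libraries against 3 allow. Per kilobase of exon, a scale on which genes can be set beside each other, Cirbp stood at 21.9 CPM in HFCF and 6.57 in OP, and Rbm3 at 13.2 and 10.4. On this scale the order of the pair was opposite in the 2 groups, while by counts Cirbp was below Rbm3 in every library. The length joins all annotated exons of a gene, so the switch in order rests on the annotation.

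The stretch before the start of Cirbp is shown because a mild cold responsive element, TCCCCGCC, has been described for this gene, and that of Srsf5 because it was the next most changed gene. Both are RefSeq windows of build GRCm38.p6, the 250 bases before an annotated start, the first of the windows for Cirbp and the one for Srsf5, written 5′ to 3′ on the plus strand at chr10:80167589-80167838 for Cirbp and chr12:80945249-80945498 for Srsf5. The submitters' notes name GRCm39, so these positions are not those of the authors' alignment. Capitals mark the cold responsive element and the GC box GGGCGG on either strand.
Cirbp: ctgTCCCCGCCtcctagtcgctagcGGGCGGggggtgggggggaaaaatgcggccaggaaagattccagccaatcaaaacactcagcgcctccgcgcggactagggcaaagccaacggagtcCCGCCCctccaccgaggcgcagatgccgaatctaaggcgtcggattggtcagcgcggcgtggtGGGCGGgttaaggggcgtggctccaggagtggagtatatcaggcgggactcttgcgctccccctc
Srsf5: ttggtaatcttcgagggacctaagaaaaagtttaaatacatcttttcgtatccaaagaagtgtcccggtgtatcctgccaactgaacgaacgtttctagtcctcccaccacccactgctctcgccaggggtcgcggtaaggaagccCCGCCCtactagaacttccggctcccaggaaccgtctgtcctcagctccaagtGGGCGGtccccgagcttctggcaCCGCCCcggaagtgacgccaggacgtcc

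The Cirbp window held the cold responsive element once, at bases -247 to -240 from the start, and the GC box 3 times. A later Cirbp start has a window with 4 GC boxes and no cold responsive element. The Srsf5 window held the GC box 3 times and no cold responsive element. RefSeq windows were at hand for 43 of the 47 genes, 59 windows in all. None was at hand for Clk1, Luc7l, Rbm3 and U2af2, so Rbm3 was not searched for the cold responsive element. The 5 motifs were searched on both strands. The cold responsive element was in 3 of the 59 windows (5.08%), beside 4.64% of 32851 windows over all genes, and its last letters CCGCC can be part of a GC box. The GC box was in 38 (64.4%), beside 32.7% of all windows, which were not matched to the 47 genes for level in liver. The paired heat shock units GAANNTTC and TTCNNGAA were each in 5 windows (8.47%), beside 6.69% and 7.17%. The E-box CACGTG was in 6 (10.2%), beside 6.02%. Of the 7 genes that fell, 6 had a window: Cirbp alone held the cold responsive element, Ddx17 alone a heat shock pair, and none the E-box. A match of letters is a description of the window and says nothing about binding.

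**Figure D2:**
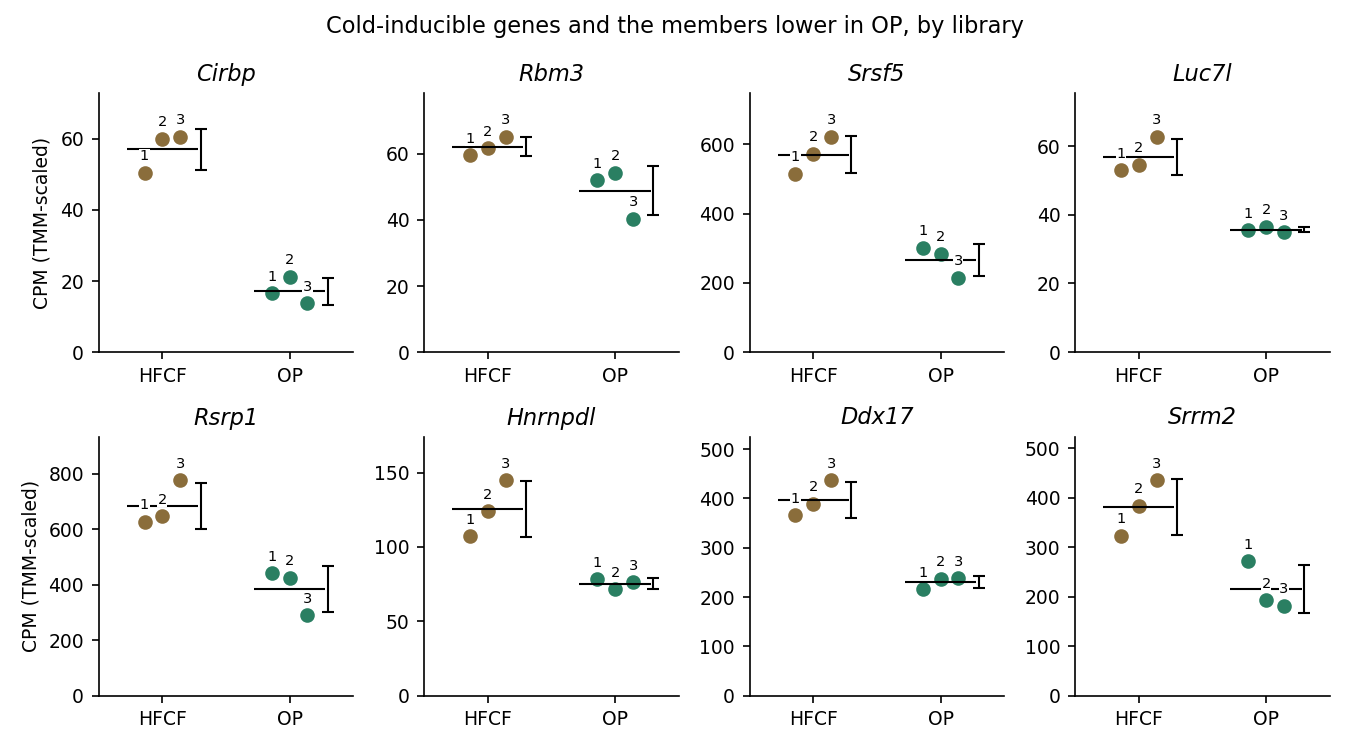
CPM in each library (numbered points) for Cirbp, Rbm3 and the other 6 genes that were called lower in OP. Lines are group means and bars SDs, each axis starts at 0, and in all 8 panels the OP points lie below the HFCF points.

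Srsf5 was the one gene to fall among the 12 SR proteins and their Tra2 relatives, beside 3.47% of all tested genes called lower. It had the highest level per kilobase of exon of the 12, at 143 CPM in HFCF and 66.8 in OP. Counted by gene, it was at 514, 572 and 622 CPM in HFCF and at 301, 284 and 215 CPM in OP. The highest OP library was far below the lowest HFCF library. The mean fell to 46.8% of its HFCF level, a log2 fold change of -1.10 ± 0.172 (SE), with an adjusted p of 0.0125 in edgeR's test. The call was lost without HFCF replicate 1 (adjusted p = 0.0679) or HFCF replicate 2 (adjusted p = 0.0849), with log2 fold changes from -1.19 to -0.96 over the 6 edgeR fits that leave out a library.

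Next in order of p came Srsf10, a splicing repressor that responds to heat, and Srsf1, the founding SR protein. Srsf10 was at 42.4, 38.4 and 38.6 CPM in HFCF and at 28.9, 29.2 and 29.5 CPM in OP, groups apart and the OP libraries nearly equal. Srsf1 was at 95.7, 102 and 119 CPM in HFCF and at 78.6, 75.8 and 78.3 CPM in OP, again without overlap. Neither passed edgeR's test (adjusted p = 0.0658 and 0.088), and both passed with DESeq2 (adjusted p = 0.0206 and 0.0281).

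The other 9 genes of the SR group did not pass, and their log2 fold changes lay on both sides of 0. Srsf2, Srsf3, Srsf6, Srsf7 and Srsf11 ran from -0.28 (Srsf2) to -0.04 (Srsf7). Srsf4, Srsf9, Tra2b and Tra2a ran from 0.23 to 0.31. Tra2a, which binds GAA-rich exon enhancers as Tra2b does, was at 39.9, 40.0 and 33.2 CPM in HFCF and at 42.6, 40.2 and 57.5 CPM in OP, so that OP replicate 2 stood just above the HFCF libraries. Tra2b, which has a pseudogene copy named Tra2b-ps, was at 36.3, 38.0 and 31.2 CPM in HFCF and at 40.7, 38.2 and 49.1 CPM in OP. The median of the 12 was -0.12. Their summed level nonetheless went from 1517 ± 80.6 to 1126 ± 90.0 CPM (SD, n = 3 each) without overlap, since Srsf5 is the most abundant of them. Srsf6, another SR protein, was at 170, 174 and 182 CPM in HFCF and at 181, 141 and 167 CPM in OP. The ratio of Srsf5 to Srsf6 counts was 3.02 to 3.41 in HFCF and 1.29 to 2.01 in OP.

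None of the 6 kinases that phosphorylate SR proteins passed the test, beside 3.47% of all tested genes called lower and 3.26% called higher. In so small a group, 0 calls lie close to those shares. This count of 0 was 0 at an unadjusted p under 0.05 and 0 with DESeq2, and the lowest adjusted p in edgeR's test was 0.322. Clk1, whose own transcript is known for retained introns, was at 251.15, 243 and 196 CPM in HFCF and at 175, 142 and 228 CPM in OP. HFCF replicate 3 and OP replicate 3 crossed over, so the groups overlapped. Clk4, the nearest relative of Clk1, was at 143, 143 and 110 CPM against 89.3, 80.2 and 137 CPM, and Clk2 at 52.3, 53.3 and 34.8 CPM against 35.1, 27.7 and 45.9 CPM. In each of the 3 genes HFCF replicate 3 was the lowest HFCF library and OP replicate 3 the highest OP library. Their log2 fold changes were -0.34 ± 0.197 for Clk1, -0.37 ± 0.222 for Clk4 and -0.37 ± 0.231 for Clk2 (SE). Clk3 (0.02 ± 0.2003), Srpk2 (0.05 ± 0.197) and Srpk1 (0.15 ± 0.149) lay near 0. Clk3 changed sign with upper quartile scaling (-0.03). Clk3 shares 1284 exon bases with Edc3 and Srpk2 shares 972 with Kmt2e, both on the opposite strand, and whether counting used strand was not stated.

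All 7 LUC7-like, RBM and arginine/serine-rich cofactors had log2 fold changes below 0, beside 48.6% of all tested genes. Of the 7, 2 fell, beside 3.47% of all tested genes. The median was -0.55. Luc7l, a homologue of the yeast U1 snRNP protein Luc7, was at 53.0, 54.6 and 62.8 CPM in HFCF and at 35.5, 36.5 and 34.9 CPM in OP. The OP libraries were close together and clearly below HFCF, with a log2 fold change of -0.67 ± 0.131 (SE) and an adjusted p of 0.0242 in edgeR's test. Rsrp1, an arginine- and serine-rich protein gene, had the highest level per kilobase of all 47 genes in HFCF (204 CPM) and in OP (115 CPM). By gene it was at 628, 648 and 778 CPM in HFCF and at 441, 426 and 290 CPM in OP. HFCF replicate 3 was the highest library and OP replicate 3 the lowest, and the log2 fold change was -0.83 ± 0.196 (SE; adjusted p = 0.0439 in edgeR's test). Of the fits that leave out a library, Luc7l was called only without HFCF replicate 3 or OP replicate 3 (adjusted p of 0.0407 to 0.122 over the 6 edgeR fits), and Rsrp1 only without OP replicate 3 (0.0452 to 0.161). Rsrp1 also lost its call with total counts (0.0755) and with no filter (0.0702).

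Rbm39, a U2AF-related coactivator, was at 225, 240 and 179 CPM in HFCF and at 127, 134 and 179 CPM in OP. Rbm5, which regulates splicing of apoptosis genes, was at 148, 147 and 103 CPM against 74.6, 62.7 and 109 CPM. In both, replicates 1 and 2 were well apart between the groups while the third replicates met. Their log2 fold changes were -0.55 ± 0.183 and -0.69 ± 0.235 (SE), and edgeR's test gave an adjusted p of 0.106 for Rbm39 and 0.11 for Rbm5. DESeq2 called both (adjusted p = 0.0329 and 0.0262). Without OP replicate 3 both were called (-0.71 and -0.95). Luc7l2 was at -0.43 without overlap of the groups, and Luc7l3 (-0.14) and Rbm25 (-0.16) overlapped. The ratio of Luc7l to Luc7l2 counts was 0.170 to 0.216 in HFCF and 0.128 to 0.195 in OP, and overlapped.

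Among the 11 hnRNP genes and Ptbp1, 1 fell and none rose, beside 3.47% and 3.26% of all tested genes. The median was -0.20, and 10 of the 12 lay below 0, beside 0.02 and 48.6% for all tested genes. Hnrnpdl, which resembles Hnrnpd, was at 107, 124 and 145 CPM in HFCF and at 78.3, 71.6 and 76.2 CPM in OP. The groups were apart and the OP libraries varied little. The mean fell to 60.1%, a log2 fold change of -0.73 ± 0.151 (SE), with an adjusted p of 0.0286 in edgeR's test. Of the 6 fits that leave out a library, only that without OP replicate 3 kept the call (adjusted p of 0.0442 to 0.15 over the edgeR fits). Hnrnpd itself was at 43.8, 45.7 and 54.5 CPM against 47.6, 40.5 and 38.1 CPM, which overlapped. The ratio of Hnrnpdl to Hnrnpd counts was 2.45 to 2.71 in HFCF and 1.65 to 2.00 in OP.

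Hnrnpa1, a classical repressor of exon inclusion with many processed copies in the genome, was at 77.3, 79.97 and 90.2 CPM in HFCF and at 55.7, 56.9 and 36.2 CPM in OP. It was as far down as Hnrnpdl (-0.73 ± 0.192, SE) but more variable, with an adjusted p of 0.0583 in edgeR's test, and DESeq2 called it (0.00374). Hnrnpa2b1, the most abundant of the 12 per kilobase of exon (45.9 CPM in HFCF and 36.5 in OP), was at 281, 299 and 328 CPM against 260, 264 and 197 CPM. These groups were apart by a narrow gap (log2 fold change -0.33; adjusted p = 0.237 in edgeR's test). Hnrnpc, which binds uridine tracts, lay the other way, at 67.4, 59.4 and 66.8 CPM against 83.3, 72.3 and 82.9 CPM (0.30; adjusted p = 0.204 in edgeR's test).

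Hnrnpa3 rested on 1 library. It was at 63.5, 71.0 and 79.1 CPM in HFCF and at 65.4, 2.06 and 56.7 CPM in OP. OP replicate 2 held 131 counts where the other 5 held 2722 to 4794. The log2 fold change of -0.78 ± 0.862 (SE) became -0.22 without that library, and neither value passed (adjusted p = 0.62 and 0.483 in edgeR's test). The other 7 genes of the group did not pass either: Hnrnpu, Hnrnpl, Hnrnpd, Hnrnpm, Hnrnpk and Ptbp1 ran from -0.26 to -0.06, and Hnrnpf was at 0.18. Hnrnpm and March2 have 1169 exon bases in common on 1 strand.

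None of the 3 genes that recognise the 3′ splice site and branch point passed (0 at an unadjusted p under 0.05, 0 with DESeq2). Over all tested genes 3.47% were called lower and 3.26% higher, so 0 of 3 lies close to those shares. The lowest adjusted p in edgeR's test was 0.62. Sf3b1, the branch point subunit of the U2 snRNP, was at 221, 233 and 183 CPM in HFCF and at 166, 133 and 250 CPM in OP. OP replicate 3 was the highest of all 6 libraries and OP replicate 2 the lowest. U2af1 was at 42.8, 41.1 and 46.8 CPM against 45.2, 37.8 and 37.1 CPM, and U2af2 at 75.0, 71.4 and 64.0 CPM against 77.6, 57.9 and 77.5 CPM. The groups overlapped in all 3 genes, with log2 fold changes of -0.21, -0.12 and 0.02, the last of which was -0.03 with upper quartile scaling.

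Of the 5 DEAD box helicases and nuclear speckle scaffolds, Ddx17 and Srrm2 fell, beside 3.47% of all tested genes called lower. Ddx17, a helicase that remodels RNA during splicing and miRNA processing, was at 365, 390 and 437 CPM in HFCF and at 216, 237 and 238 CPM in OP. The groups were wide apart, with a log2 fold change of -0.79 ± 0.138 (SE) and an adjusted p of 0.0174 in edgeR's test. Its close paralogue Ddx5 was at 485, 535 and 514 CPM against 597, 510 and 600 CPM, which overlapped (0.15 ± 0.141, SE; adjusted p = 0.547 in edgeR's test). The ratio of Ddx17 to Ddx5 counts was 0.753, 0.729 and 0.850 in HFCF and 0.362, 0.464 and 0.397 in OP, a log2 difference of -0.94. Ddx17 lost its call without HFCF replicate 1 (adjusted p = 0.0831), HFCF replicate 2 (0.108) or OP replicate 1 (0.0803) in the edgeR fits.

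Srrm2, a large scaffold of nuclear speckles, the bodies where splicing factors are stored, was at 323, 384 and 435 CPM in HFCF and at 271, 193 and 182 CPM in OP. The spread was wide in both groups, but they did not overlap (log2 fold change -0.82 ± 0.197, SE; adjusted p = 0.0452 in edgeR's test). It lost its call whichever library was left out (adjusted p of 0.0551 to 0.184 in the edgeR fits), with log2 fold changes from -1.02 to -0.71. The call was also lost with total counts (0.0746) and with no filter (0.0689). Son, the other large speckle scaffold, was at 382, 384 and 272 CPM in HFCF and at 203, 194 and 293 CPM in OP. The third replicates crossed over as they did for Rbm39 and the CLK genes, and the change of -0.59 ± 0.212 (SE) did not pass (adjusted p = 0.128 in edgeR's test), while DESeq2 called it (0.04). Srrm1 was at -0.26 without overlap.

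**Figure D3:**
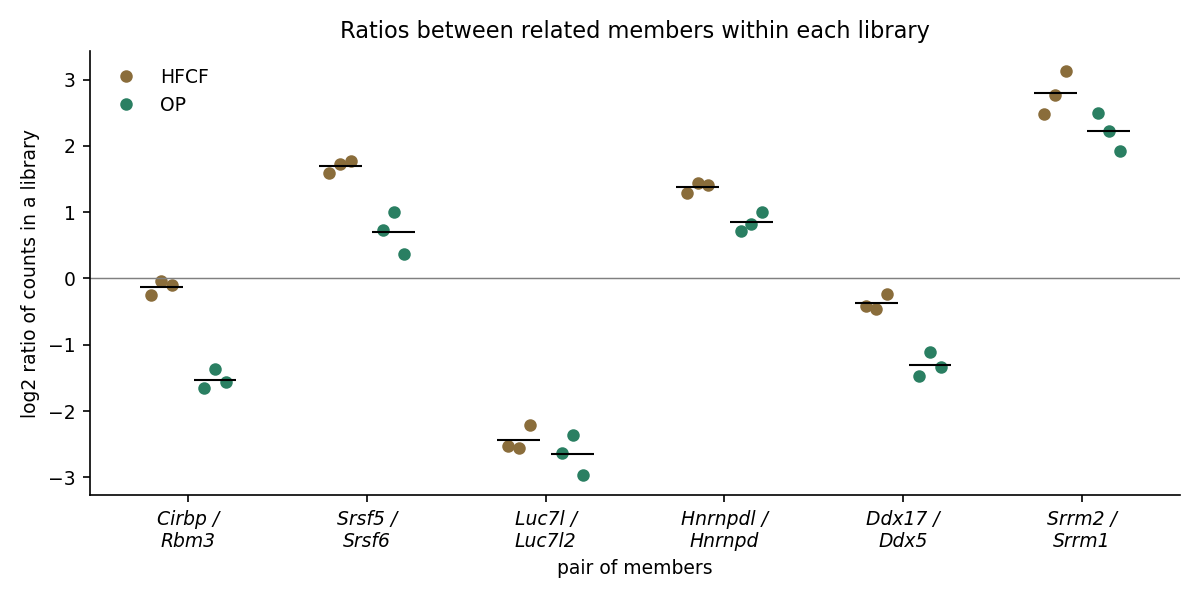
Log2 ratio of counts between 6 pairs of related genes within each library, HFCF and OP points side by side with the group mean as a line. The groups are apart for Cirbp to Rbm3, Srsf5 to Srsf6, Hnrnpdl to Hnrnpd and Ddx17 to Ddx5, and overlap for Luc7l to Luc7l2 and Srrm2 to Srrm1.

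The pairs other than Cirbp and Rbm3 were chosen after the values were seen. In 4 of the 6 pairs the groups did not overlap, each with p = 0.1 in the exact two-sided permutation test, the smallest the design allows, and 0.15 adjusted over the 6. The log2 differences of these 4 were -1.40 for Cirbp to Rbm3, -0.99 for Srsf5 to Srsf6, -0.94 for Ddx17 to Ddx5 and -0.53 for Hnrnpdl to Hnrnpd. For Srrm2 to Srrm1 the exact p was 0.2, and for Luc7l to Luc7l2 it was 0.4.

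**Figure D4:**
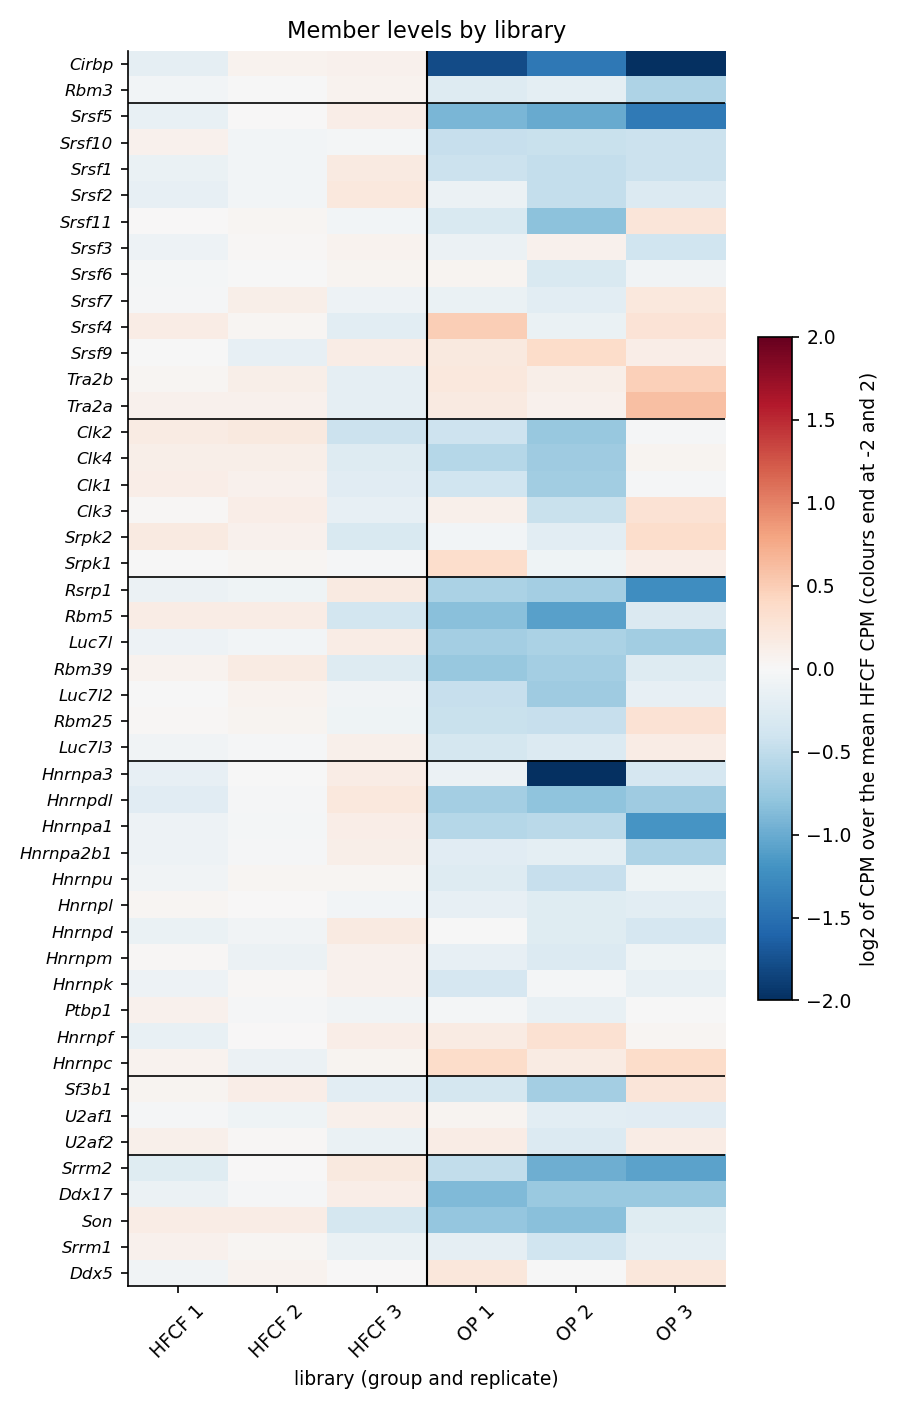
Level of each of the 47 genes in each library as log2 of its CPM over the mean HFCF CPM, with roles divided by lines. The OP columns are mostly blue. Cirbp, Srsf5 and Rsrp1 are bluest in OP replicate 3, where Cirbp is at the end of the scale. Hnrnpa3 is at the end of the scale in OP replicate 2 alone.

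The third replicates divided the 47 genes. In 16, HFCF replicate 3 was the lowest HFCF library and OP replicate 3 the highest OP library. These were Clk1, Clk2, Clk3, Clk4, Srpk2, Luc7l2, Rbm5, Rbm25, Rbm39, Sf3b1, Son, Srsf7, Srsf11, Tra2a, Tra2b and Ptbp1. In 13 the order was the opposite, with HFCF replicate 3 highest and OP replicate 3 lowest. These included Cirbp, Srsf5, Luc7l, Rsrp1 and Srrm2 as well as Rbm3, Hnrnpa1, Hnrnpa2b1, Hnrnpd, Hnrnpf, Srsf3, Srsf9 and U2af1. The other 18, Ddx17 and Hnrnpdl among them, had neither order. These sets were formed after the values were seen, from the values that also decide the calls. How common the 2 orders were among all tested genes was not counted, so they are not shown to be particular to the 47.

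HFCF replicate 3 and OP replicate 3 also had the closest mitochondrial shares across the groups, 14.3 and 15.0%. Between these 2 libraries alone, which give no test, the OP level was 0.226 times the HFCF level for Cirbp, 0.345 for Srsf5 and 0.372 for Rsrp1. It was 1.0002 times for Rbm39, 1.08 for Son and 1.25 for Clk4. These genes were picked from the sets above, which these libraries help to define, so their contrast is no separate result. Of all 47 genes, 26 were lower in OP replicate 3 than in HFCF replicate 3, beside 36 below 0 in the main fit. The 26 included the 7 called genes, whose calls rest in part on these libraries. All tested genes were not counted in this way. When the mitochondrial share was added to the model, edgeR called Cirbp (log2 fold change -2.18), Srsf5 (-1.50), Rsrp1 (-1.35) and Hnrnpa1 (-1.26). Ddx17, Hnrnpdl, Luc7l and Srrm2 lost their calls in that fit with log2 fold changes no smaller in size, at -0.87, -0.90, -0.82 and -1.20 (edgeR adjusted p = 0.066, 0.0796, 0.0651 and 0.0705). In that fit 0.644% of all tested genes were called lower. Son was then at -0.00078, Rbm39 at -0.11 and Rbm5 at -0.02, and Clk1 (0.16), Clk2 (0.29) and Clk4 (0.24) turned to the opposite sign. The share went largely with the group, so the covariate and the treatment cannot be told apart.

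**Figure D5:**
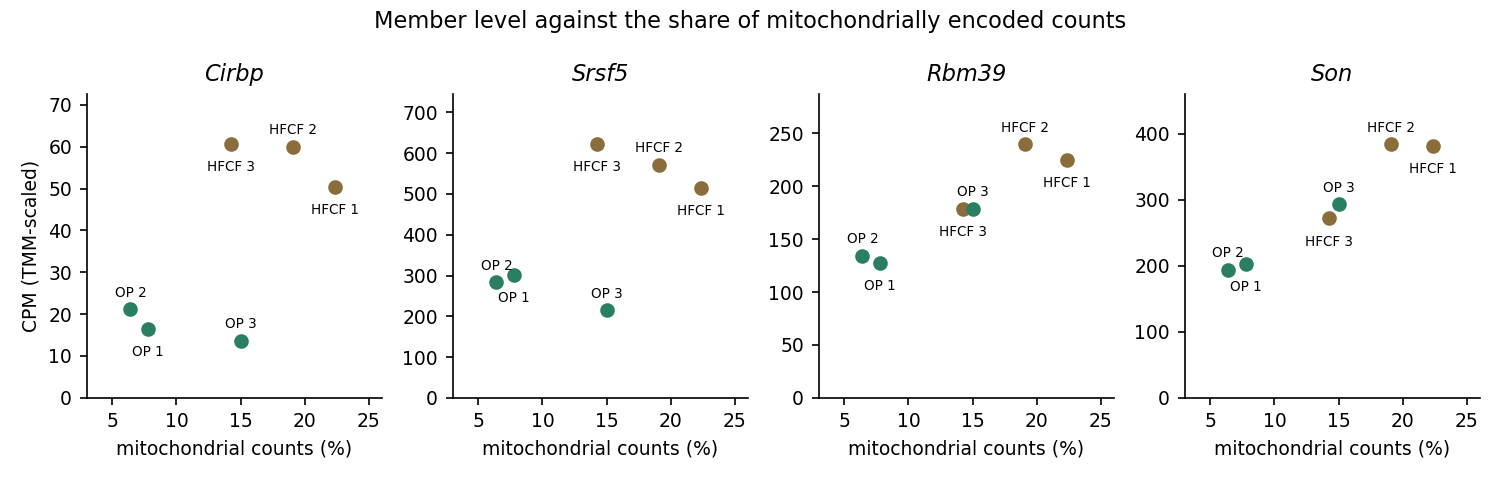
CPM of 4 genes in each library against the percentage of its counts in mitochondrially encoded genes, coloured by group. At 14.3 and 15.0% HFCF replicate 3 and OP replicate 3 are far apart for Cirbp and Srsf5 and close together for Rbm39 and Son.

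In the annotation (GENCODE M21) 42 of the 47 genes (89.4%) carry at least 1 transcript classed as a retained intron, and 40 (85.1%) at least 1 classed as a target of nonsense-mediated decay. For the 5476 tested protein-coding genes in the same range of levels the shares were 66.6 and 32.5%. Those genes had a median of 6 annotated transcripts and the 47 a median of 10, so the sets were not matched for transcript number. Of the 7 genes that fell, 6 had a retained-intron transcript and 5 a decay target, beside 36 and 35 of the other 40, a difference that was not tested. The 14 genes with at least 100 exon bases in common with another gene included none of the 7.

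Other genes of the pathway were taken from lists written with earlier results of these data known. Of 54 core spliceosome genes, 2 fell and 1 rose, shares near or under those of all tested genes (3.47% lower, 3.26% higher), with a median log2 fold change of 0.17. Prpf39, a U1 snRNP protein, fell from 66.9 ± 2.79 to 37.5 ± 3.55 CPM and Dhx15, the helicase that takes spliceosomes apart, from 49.9 ± 7.52 to 25.9 ± 2.47 CPM, while Sf3a3 rose from 10.8 ± 1.02 to 16.9 ± 0.926 CPM (SD, n = 3 each). Of 55 other splicing regulators tested, 5 fell and none rose, beside 3.47% and 3.26% of all tested genes, with a median of -0.23. They were Arglu1 (-1.15), Ptbp2 (-1.19), Pnisr (-0.91), Hnrnpll (-0.67) and Hnrnpr (-0.63). Arglu1 and Pnisr encode arginine-rich proteins of nuclear speckles, and Ptbp2 is a paralogue of Ptbp1, itself at -0.06. Of 15 genes of nonsense-mediated decay and the exon junction complex, Upf3b alone passed, and it fell (-0.76), beside 3.47% of all tested genes. Among 7 nuclear long noncoding RNAs 1 was called lower, beside 3.47% of all tested genes. This was Malat1, an RNA of the nuclear speckle, which fell from 233 ± 81.1 to 104 ± 30.3 CPM. Snhg1, a host gene of small nucleolar RNAs, was at -0.77 (adjusted p = 0.0523 in edgeR's test), and Neat1, the scaffold of paraspeckles, was at -1.13 with an adjusted p of 0.0807 in edgeR's test.

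Heat shock and circadian clock genes were listed as well, and a link of their levels to that of Cirbp was not tested. Of 15 heat shock genes tested, 10 rose and none fell, beside 3.26% and 3.47% of all tested genes, and the median log2 fold change was 0.93. On the log2 scale the cochaperones Bag3 and Dnajb1 rose by 1.87 and 1.76. The inducible Hsp70 genes Hspa1b and Hspa1a rose by 4.01 and 4.37, and since they are nearly identical copies, reads may be split between them. Of 19 circadian clock genes, Per2, which responds to temperature as well as to the clock, rose from 31.3 ± 2.18 to 95.6 ± 32.9 CPM, and Cry2 (-0.90) and Nr1d1 (-0.79) fell. That is 1 of 19 higher and 2 of 19 lower, beside the same 3.26% and 3.47% of all tested genes. The other 16 did not pass. Whether temperature had a part in any of these levels was not tested.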

How the data were processed

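Per the labels' protocols, oligo(dT)-selected RNA of liver was made into libraries with a dUTP-marked second strand and sequenced in read pairs. Cutadapt 1.9, FastQC and GRCm39 are named in the submitters' processing notes. The sources used here do not give the aligner, the counter or its strand setting. Raw counts per gene were deposited by the authors in 1 table. Counts of 4 were commoner than counts of 3 or 5 in each library, so whether a read pair adds a single count is not known, and the precision that the count model assumes could be affected. Ensembl identifiers gave symbols for 55141 of 55401 genes. Genes were kept by filterByExpr (17394), scaled by TMM and tested two-sided across all genes with edgeR 4.0.16 (glmQLFit, glmQLFTest) under R 4.3.3. The Benjamini-Hochberg threshold was 0.05. A standard error is the log2 fold change over the square root of F. Library sizes scaled by TMM put 3 counts at 0.0472 to 0.0625 CPM. Exon lengths, overlaps and transcript classes came from GENCODE M21. DESeq2 1.42.0, other scalings and filters, a replicate block, a mitochondrial covariate and left-out libraries were alternatives. The test was tried on simulated data.

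The members and lists were chosen with earlier results of these data known. The text names Cirbp, Rbm3, each member that passed, the 3 members with the smallest p and the most abundant member per kilobase in each role, and up to 4 genes of each other list with the smallest p. Hnrnpr, Hnrnpa3, Rbm5, Tra2a, Tra2b, Srsf6, Clk3, Myh4, Igkc, Alas2, the motifs and the third-replicate sets were singled out after values were seen.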

Additional observations from a re-analysis of the deposited data

How the results depend on the processing

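Cirbp was called in all 16 alternatives, and no member was called higher in the 6 fits without a library. Genes higher and lower in OP, with members lower, numbered 1269, 1265 and 13 with DESeq2, 134, 112 and 4 with the mitochondrial covariate, and 282, 264 and 1 without HFCF replicate 3 and OP replicate 2, a fit added after seeing the data. They numbered 72, 92 and 1 at an adjusted p under 0.01. Higher and lower genes numbered 298 and 400 with no filter and 1322 and 1230 at an adjusted p under 0.1. With 1 library left out they ran from 34 to 655 and from 54 to 655, and members lower from 1 to 9. With the replicate block 87 genes were higher and 93 lower, and 1 member was lower. The labels do not say that shared replicate numbers pair samples, so the numbers were not taken as pairs. Same-numbered libraries correlated at 0.0229, -0.126 and -0.164 in their deviations, and no library correlated best with its own number. Signs turned with the covariate for 10 members: Clk1 (0.16), Clk2 (0.29), Clk4 (0.24), Sf3b1 (0.38), Hnrnpf, Luc7l3, Ptbp1, Rbm25, Srsf7 and Srsf11. Srpk2 and Srsf7 each turned in 2 fits without a library, and with both libraries left out Srsf6 turned (0.0076). Clk3 turned with upper quartile scaling (-0.029), the 1 CPM filter (-0.010) and the block (-0.0095), and ran from -0.14 to 0.20 with a library left out. U2af2 turned with upper quartile scaling (-0.025) and the 1 CPM filter (-0.0091), and ran from -0.051 to 0.15. The cause was not tested.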
